A study of Mus musculus with 28 samples.

Results

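Aminoacyl-tRNA synthetases join each amino acid to its transfer RNA. The 34 genes described here are the synthetase genes whose symbols were matched among the 23222 symbols of the transcript tables. Of these, 20 encode cytosolic enzymes, and 14, with a symbol ending in 2, encode enzymes of the mitochondrion. A gene with several listed transcripts was represented by the transcript with the highest mean RPKM (reads per kilobase of transcript, scaled to the total reads of the library). All 34 passed the filter on low values, a level of at least 1 RPKM in the highest library.

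The series holds 28 mouse samples, of which the 9 RNA-seq libraries were used and the other 19, chromatin immunoprecipitation libraries, were not analysed here. All 9 were made from CD4+ T cells isolated from the spleen of C57BL/6 mice of wild-type genotype, stimulated for 3 days with anti-CD3 (2 µg/ml) and anti-CD28 (1 µg/ml) and rested overnight. The control library received no cytokine. The other 8 were collected at 0.5, 2, 4 and 24 h after IL-2 or IL-21 was added, with 1 library per condition, so that a difference between 2 libraries has no replicate check. No source used here gives the cytokine doses of the RNA-seq cultures, or says that separate mice or cultures were used for the libraries. No control of 2, 4 or 24 h was analysed here, so cytokine and time in culture cannot be told apart in comparisons with the control.

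Protein synthesis depends on charged transfer RNAs, and a cell carries separate sets of synthetases for its cytosol and for its mitochondria, all encoded in the nucleus and mostly by separate genes. Several cytosolic synthetases sit in one large multisynthetase complex held together by the scaffold proteins AIMP1, AIMP2 and the product of Eef1e1. The transcription factor ATF4 is known to raise many cytosolic synthetase genes when amino acids are short, through short promoter elements, and MYC is known for raising genes of translation through E-boxes. The receptors of IL-2 and IL-21 share the common gamma chain, with STAT5 the main transcription factor downstream of IL-2 and STAT3 that of IL-21. Activated T cells that grow make much new protein.

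Promoters are shown here because synthetase genes are known for these elements, and because the cytosolic genes stood higher together with IL-2. RefSeq windows of assembly GRCm38.p6, from 250 bases before to 50 bases after the start of the gene, were found for 26 of the 34 genes, 13 cytosolic and 13 mitochondrial. The amino acid response core TGATGNAA was searched on both strands and was present in 5 of 13 cytosolic windows (38.5%), in 0 of 13 mitochondrial windows and in 3.91% of all 32544 windows. The E-box CACGTG was present in 4 of 13 cytosolic windows (30.8%), in 1 of 13 mitochondrial windows (7.69%, Ears2) and in 7.17% of all windows. These 2 motifs do not overlap in the windows printed. Capitals mark the matches, a match is a description of letters and not a binding site, and each window is printed 5′ to 3′ along its gene. Tars (threonine), Iars (isoleucine) and Aars (alanine) hold both motifs, while Mars (methionine, listed in RefSeq as Mars1), which differed most with IL-2 at 24 h, and Qars (glutamine), which was lowest against the control among cytosolic genes, hold neither. The windows lie at chr15:11399609-11399908 (minus strand, Tars), chr13:49681880-49682179 (plus strand, Iars), chr8:111033592-111033891 (plus strand, Aars), chr10:127311737-127312036 (minus strand, Mars) and chr9:108507755-108508054 (plus strand, Qars).
Tars: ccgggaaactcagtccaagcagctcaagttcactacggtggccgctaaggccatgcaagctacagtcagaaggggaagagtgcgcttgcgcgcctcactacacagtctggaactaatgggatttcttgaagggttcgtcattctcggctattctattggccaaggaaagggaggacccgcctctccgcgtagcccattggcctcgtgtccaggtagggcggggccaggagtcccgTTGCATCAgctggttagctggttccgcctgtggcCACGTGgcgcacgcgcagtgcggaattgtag
Iars: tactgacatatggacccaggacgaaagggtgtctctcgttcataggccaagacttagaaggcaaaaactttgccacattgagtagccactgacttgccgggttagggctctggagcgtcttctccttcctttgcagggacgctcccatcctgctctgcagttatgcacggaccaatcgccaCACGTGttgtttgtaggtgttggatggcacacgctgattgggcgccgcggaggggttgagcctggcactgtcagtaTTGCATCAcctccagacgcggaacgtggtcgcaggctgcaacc
Aars: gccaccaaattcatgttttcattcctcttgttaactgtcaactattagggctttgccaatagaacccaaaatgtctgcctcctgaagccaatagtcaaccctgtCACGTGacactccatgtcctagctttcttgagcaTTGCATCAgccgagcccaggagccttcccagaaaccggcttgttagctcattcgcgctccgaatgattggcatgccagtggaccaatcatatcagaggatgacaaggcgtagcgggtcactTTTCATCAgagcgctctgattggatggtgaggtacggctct
Mars: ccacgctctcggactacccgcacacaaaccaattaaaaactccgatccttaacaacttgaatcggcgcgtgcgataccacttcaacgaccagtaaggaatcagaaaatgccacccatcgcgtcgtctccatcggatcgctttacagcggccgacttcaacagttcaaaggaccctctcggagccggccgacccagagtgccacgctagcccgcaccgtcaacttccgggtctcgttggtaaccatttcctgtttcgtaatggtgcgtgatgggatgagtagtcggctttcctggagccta
Qars: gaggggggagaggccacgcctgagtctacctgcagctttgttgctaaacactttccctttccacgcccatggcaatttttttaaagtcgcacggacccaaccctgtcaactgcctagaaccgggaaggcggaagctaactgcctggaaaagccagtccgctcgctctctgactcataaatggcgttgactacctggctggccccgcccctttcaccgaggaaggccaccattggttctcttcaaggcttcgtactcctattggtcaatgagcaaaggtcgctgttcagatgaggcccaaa

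In Tars the amino acid response core began 15 bases before the start and the E-box 20 bases after it. Iars held the core 8 bases after its start and the E-box 69 bases before it. Aars held the core at 112 bases before and 10 bases after its start, and the E-box at 146 bases before it. The other cytosolic windows with the core were those of Gars (glycine) and Yars (tyrosine), and the remaining E-box window was that of Farsb (phenylalanine, beta subunit). With IL-2 at 24 h the log2 difference from the control, on the log2(RPKM + 1) scale used throughout, had a median of 1.03 over the 5 cytosolic genes with the core (0.85 to 1.53) and of 0.79 over the 8 without it (-0.24 to 1.56). For the E-box the median was 1.16 over the 4 cytosolic genes with it (0.89 to 1.53) and 0.85 over the 9 without it (-0.24 to 1.56). The ranges overlapped for both motifs. Cars, Hars, Lars, Nars, Rars, Vars and Wars had no window and are not in these medians. Whether either motif has a part in the differences was not tested.

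The levels of the cytosolic genes spanned from 8.25 RPKM for Cars (cysteine) to 68.4 RPKM for Kars (lysine), as means over the 9 libraries, with a median of 29.9 RPKM. Most mitochondrial genes were lower, from 2.03 RPKM for Wars2 (tryptophan) to 27.1 RPKM for Tars2 (threonine), with a median of 5.73 RPKM over all 14. Lars2 (leucine) stood apart at 350 RPKM, above every cytosolic synthetase, and whether its counts hold reads of other RNAs was not tested. The lowest read count of a cytosolic gene in any library was 661, and of a mitochondrial gene 131, in libraries of 29.5 to 44.3 M reads. Kars and Gars each encode both the cytosolic and the mitochondrial enzyme in mammals and were counted with the cytosolic genes. Reads were not tied to single molecules by identifiers, and all intervals cover counting error only.

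**Figure D1:**
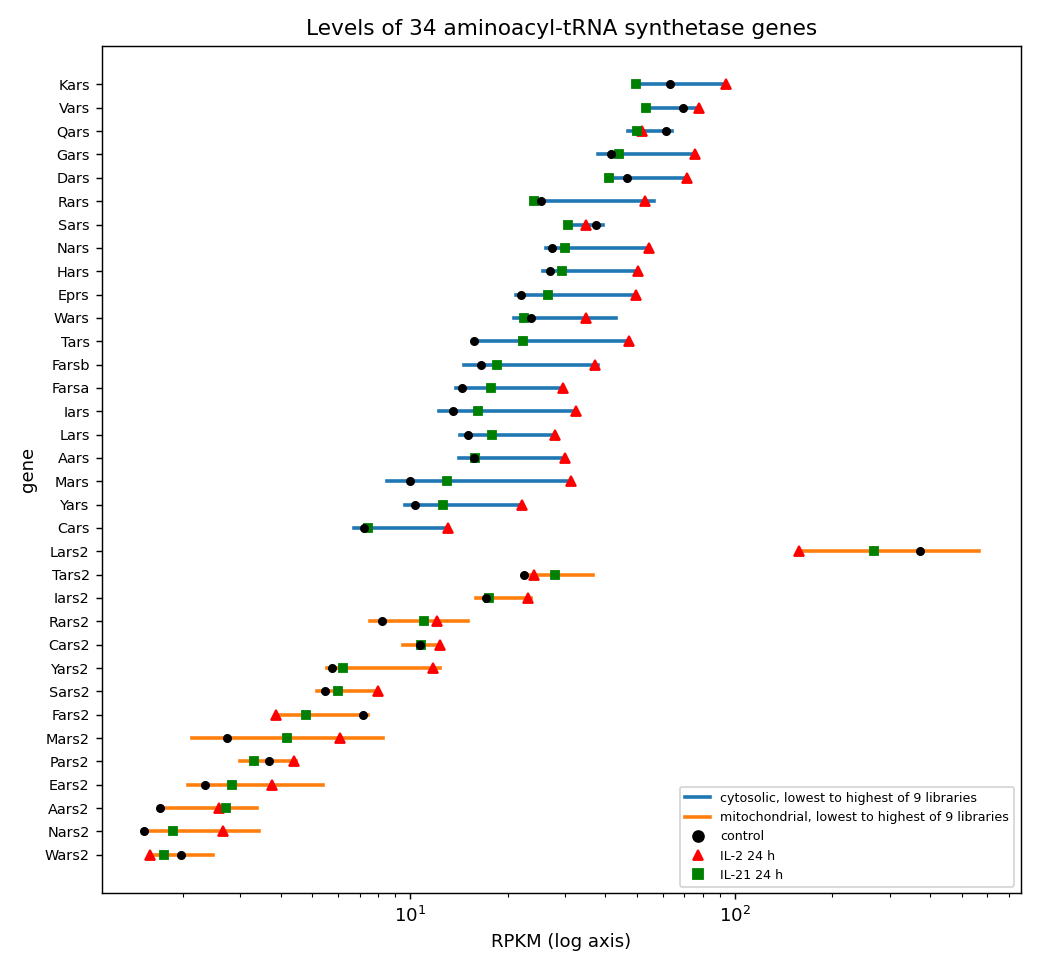
Level of each of the 34 genes in RPKM on a log axis, ordered by mean within the cytosolic and the mitochondrial group. Lines run from the lowest to the highest of the 9 libraries, and symbols mark the control and the 24 h libraries of IL-2 and IL-21. The mitochondrial genes other than Lars2 lie at mean levels of 27.1 RPKM or less, and the IL-2 24 h symbol lies to the right of the control for 18 of 20 cytosolic genes.

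Markers of CD4 T cells were present in all libraries, with 8 genes summing to between 1332 RPKM (IL-2, 24 h) and 2039 RPKM (IL-2, 0.5 h). Markers of B cells (9 genes) summed to 59.8 RPKM in the control, 27.4 RPKM with IL-2 at 24 h and 11.4 RPKM with IL-21 at 24 h, and all 8 of the B cell markers tested were below the control in both 24 h libraries. Markers of NK cells (5 genes) summed to 195, 117 and 526 RPKM in the same 3 libraries, nearly all of it Gzma, with Ncr1 at 0.22 RPKM or less in every library. The 2 CD8 T cell markers summed to between 6.27 and 11.3 RPKM, and the 6 macrophage markers to between 2.93 and 9.23 RPKM. The part of these shifts in the synthetase values was not tested. In such bulk samples, fewer cells of a type and less RNA per cell cannot be told apart.

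With IL-2, most cytosolic synthetase genes were near the control at 0.5 h and higher at each later time. The median log2 difference of the 20 genes from the control was 0.02 at 0.5 h, 0.34 at 2 h, 0.67 at 4 h and 0.88 at 24 h. The median over all 11047 genes in this comparison was 0.05 at 24 h. Summed over the 20 genes, the level was 564 RPKM in the control and 569, 690, 813 and 919 RPKM at the 4 times. A difference of at least 2-fold was reached by 0 of 20 genes at 0.5 h, 1 at 2 h, 5 at 4 h and 7 at 24 h, where 0.407%, 3.15%, 5.38% and 9.58% of all genes were higher by as much. At 24 h, 18 of 20 were above the control and none was 2-fold lower (6.64% of all genes), and the 7 were Mars, Tars, Iars, Eprs, Farsb, Rars and Yars. Under upper quartile scaling, which shifts the median of all genes at 24 h by -0.16, 3 of 20 genes reached 2-fold and 17 of 20 stood above the control, while the cytosolic median less the all-gene median was 0.80 against 0.83 by RPKM.

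**Figure D2:**
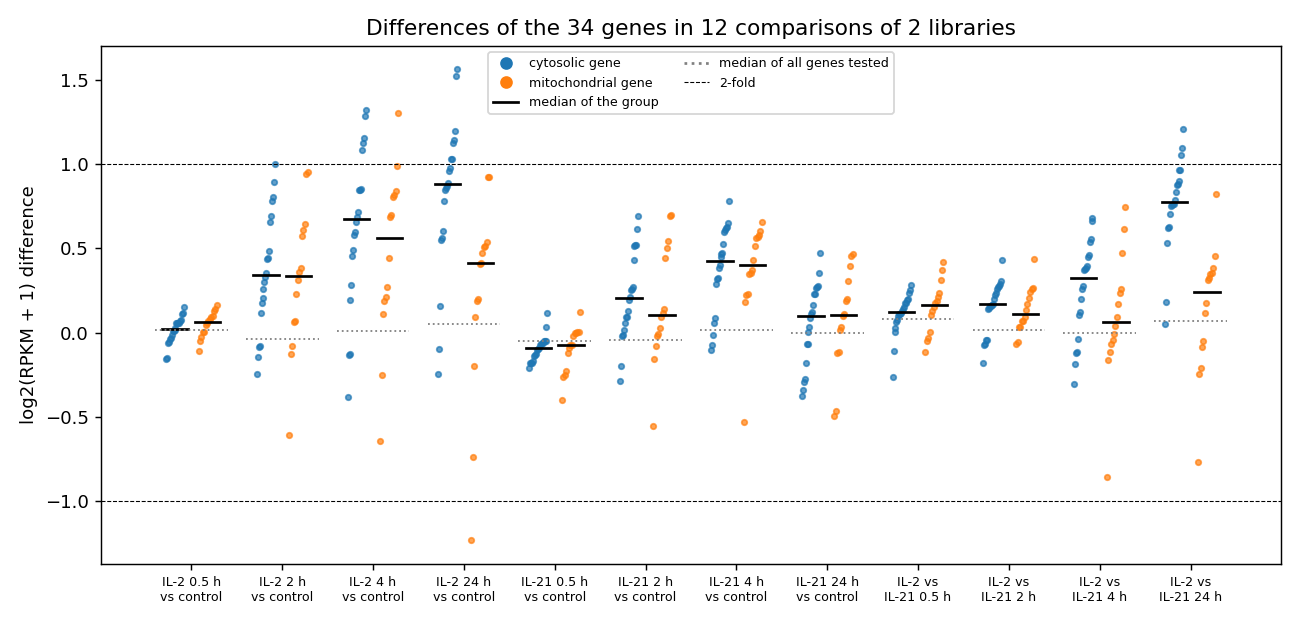
Difference of each gene between 2 libraries on the log2(RPKM + 1) scale, for 8 comparisons with the control and 4 of IL-2 with IL-21 at the same time. Each point is 1 gene, black bars are the medians of the 20 cytosolic and 14 mitochondrial genes, dotted lines the median of all 11047 genes and dashed lines 2-fold. The cytosolic median with IL-2 moves from 0.02 at 0.5 h to 0.88 at 24 h, while with IL-21 it is 0.42 at 4 h and 0.10 at 24 h.

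Mars, the methionine enzyme that also charges the initiator transfer RNA, had 9.99 RPKM without cytokine and 9.72, 16.8, 26.4 and 31.4 RPKM at 0.5, 2, 4 and 24 h of IL-2. With IL-21 it stood at 8.49, 12.2, 17.9 and 13.0 RPKM. Every library of 2 h or later was above the control with either cytokine, and IL-2 was above IL-21 at all 4 times. Its 24 h level with IL-2 was 3.15 times the control (95% counting interval 2.93 to 3.38), a log2 difference of 1.56. Mars overlaps the stress gene Ddit3 in the RefSeq gene table, and no source used here says whether counting used strand. Ddit3 itself stood lower, at 13.9 RPKM with IL-2 at 24 h beside 26.96 RPKM in the control.

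Tars, the threonine enzyme, stood at 15.8 RPKM without cytokine, then at 17.7, 32.7, 40.0 and 47.3 RPKM across the IL-2 times and 16.2, 26.2, 24.9 and 22.3 RPKM across the IL-21 times. It was the 1 cytosolic gene at 2-fold with IL-2 at 2 h, at a log2 difference of 1.00 that falls short of 2-fold under upper quartile scaling. Its 24 h level with IL-2 was 3.00 times the control (2.82 to 3.19), and its IL-21 level was 1.41 times (1.32 to 1.51). Iars, the isoleucine enzyme of the multisynthetase complex, stood at 13.6 RPKM without cytokine, then at 13.3, 24.5, 29.9 and 32.5 RPKM across the IL-2 times and 12.3, 19.9, 21.45 and 16.1 RPKM across the IL-21 times. For both genes IL-2 stood above IL-21 at every time, and further above at 24 h than at 2 h.

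Eprs, which encodes the joined enzyme for glutamate and proline, stood at 22.0 RPKM without cytokine, then at 22.2, 31.1, 40.3 and 49.8 RPKM across the IL-2 times and 21.202, 25.6, 30.8 and 26.7 RPKM across the IL-21 times. Yars had the same shape at a lower level, from 10.4 RPKM in the control to 22.2 RPKM with IL-2 at 24 h and 12.7 RPKM with IL-21. Rars, the arginine enzyme, stood at 25.3 RPKM without cytokine, then at 24.2, 47.8, 56.4 and 52.8 RPKM across the IL-2 times and 23.7, 39.2, 34.9 and 24.1 RPKM across the IL-21 times. Rars thus had most of its difference by 2 h with both cytokines, and its IL-21 level at 24 h was 0.954 times the control (0.895 to 1.02), an interval that includes equality. Farsb, the beta subunit of the phenylalanine enzyme, was highest at 4 h in both courses. It stood at 16.5 RPKM without cytokine, then at 14.7, 29.0, 38.0 and 37.2 RPKM across the IL-2 times and 15.9, 24.1, 25.5 and 18.6 RPKM across the IL-21 times. Farsa, its partner subunit, was 14.5 RPKM in the control and 29.5 RPKM with IL-2 at 24 h, just short of 2-fold on this scale (0.98), as was Nars (asparagine, 0.96).

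**Figure D3:**
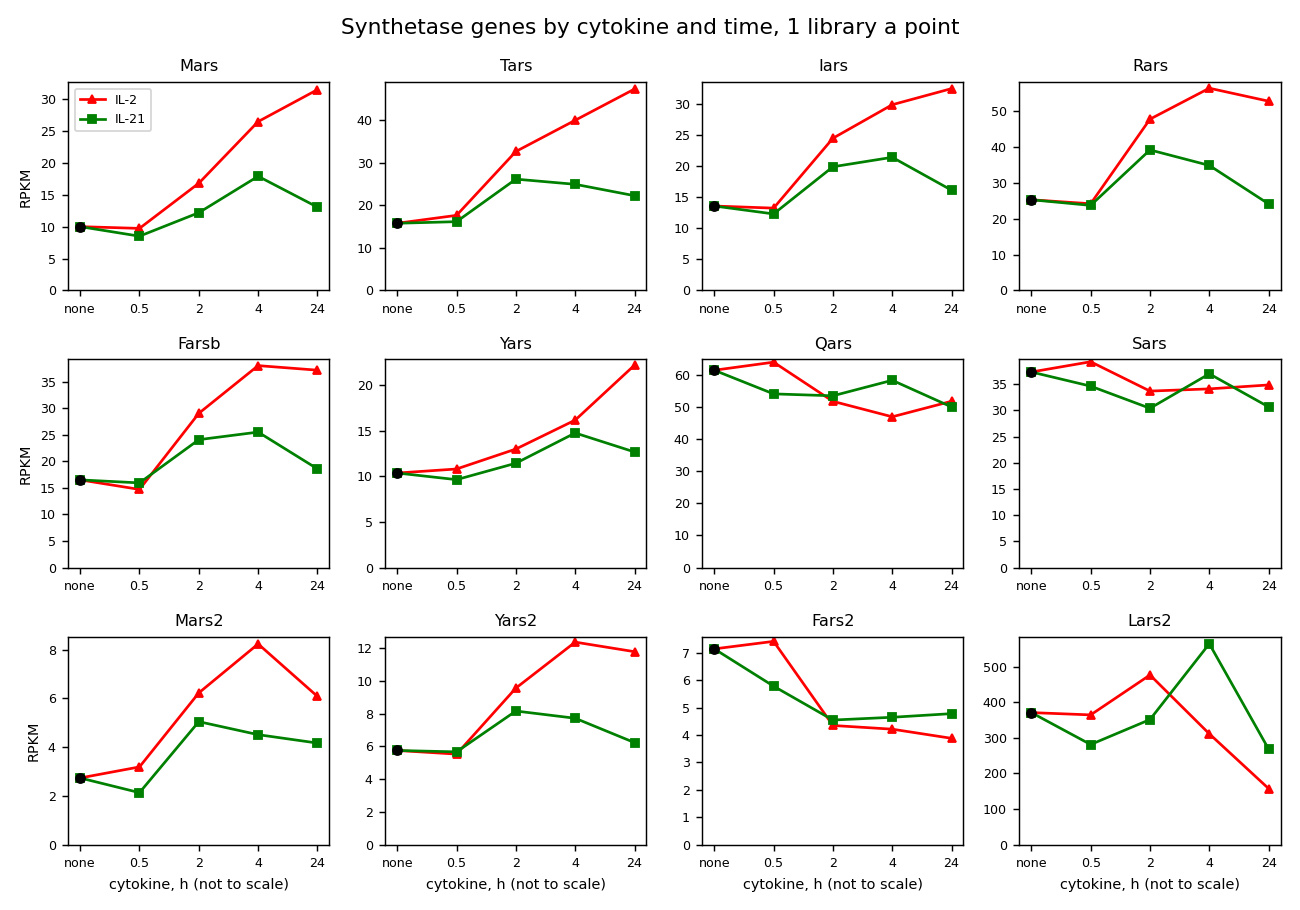
Levels in RPKM of 8 cytosolic and 4 mitochondrial genes in the control (black circle) and over 0.5 to 24 h of IL-2 (red triangles) or IL-21 (green squares), 1 library a point, with the times spaced evenly. Mars, Tars, Iars and Yars are highest at 24 h with IL-2, Qars and Sars are not, and Lars2 is the only gene of the 12 at its highest in an IL-21 library.

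Not all cytosolic genes followed. Qars, the glutamine enzyme, stood at 61.5 RPKM without cytokine, then at 64.1, 51.8, 47.0 and 51.9 RPKM across the IL-2 times and 54.2, 53.6, 58.4 and 50.1 RPKM across the IL-21 times. Its 24 h ratio to the control was 0.843 (0.809 to 0.878) with IL-2 and 0.814 (0.782 to 0.847) with IL-21. Sars, the serine enzyme, stood at 37.3 RPKM without cytokine, then at 39.3, 33.7, 34.1 and 34.9 RPKM across the IL-2 times and 34.6, 30.4, 37.0 and 30.7 RPKM across the IL-21 times. Both were thus below the control at 24 h with either cytokine. Vars, the valine enzyme, stood at 69.5 RPKM without cytokine, then at 70.2, 65.6, 63.3 and 77.8 RPKM across the IL-2 times and 61.2, 68.9, 72.2 and 53.4 RPKM across the IL-21 times. Its log2 difference with IL-2 at 24 h, 0.16, turns to -0.03 under upper quartile scaling. Qars, Vars and Kars were 3 of the most abundant synthetases in the control, and Kars stood at 63.1 RPKM there, then at 64.3, 71.3, 87.1 and 93.7 RPKM across the IL-2 times and 55.7, 63.7, 67.1 and 49.7 RPKM across the IL-21 times. Cars, the least abundant cytosolic gene, stood at 7.20 RPKM without cytokine, then at 7.54, 6.72, 8.39 and 13.1 RPKM across the IL-2 times and 6.92, 7.76, 9.21 and 7.40 RPKM across the IL-21 times. Its ratio to the control was 1.16 (1.06 to 1.28) at 4 h and 1.82 (1.66 to 2.00) at 24 h of IL-2. The other cytosolic genes, Aars, Dars (aspartate), Gars, Hars (histidine), Lars and Wars (tryptophan), differed from the control by between 0.55 and 0.89 on the log2 scale at 24 h of IL-2.

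With IL-21 the cytosolic genes were higher at 2 and 4 h and back near the control at 24 h. Their median log2 difference from the control was -0.09, 0.20, 0.42 and 0.10 at the 4 times, and 17 of 20 were above the control at 4 h but 13 of 20 at 24 h. No gene was 2-fold higher at any time, where 0.326%, 1.72%, 1.21% and 1.62% of all genes were. Mars had the largest difference among the members at 4 h, 0.78. Between 4 h and 24 h of IL-21, 0 of 20 cytosolic genes were higher under each scaling tried, and the median was -0.33 (all genes -0.06), or -0.27 (all genes -0.01) with TMM scaling. Between 4 h and 24 h of IL-2, 17 of 20 were higher with a median of 0.23, and 16 of 20 under upper quartile or TMM scaling. The time of the highest level was accordingly 24 h for 15 of 20 genes with IL-2, against 35.2% of all genes, and 4 h for 16 of 20 with IL-21, against 33.2%.

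In the direct comparison at the same time, IL-2 stood above IL-21 for 18, 15, 15 and 20 of the 20 cytosolic genes at 0.5, 2, 4 and 24 h, and at all 4 times for 12 of them. The median log2 difference was 0.13, 0.17, 0.32 and 0.78, beside 0.08, 0.02, 0.00 and 0.07 over all genes. No gene differed 2-fold in either direction at the first 3 times, where 0.507%, 1.33% and 3.9% of all genes did, and 3 of 20 were 2-fold higher with IL-2 at 24 h, beside 9.85% of all genes. The 3 were Mars (1.21), Rars (1.10) and Tars (1.05), and Iars (0.97) and Farsb (0.96) lay just under the threshold. Under upper quartile or TMM scaling 1 of the 20 passed it and 19 of 20 stood above 0. This comparison uses the IL-2 library of 24 h, as do those with the control and with 4 h, so the 3 do not bear on each other independently.

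The mitochondrial genes were also higher with IL-2, but their median was highest at 4 h and was below the cytosolic median at 24 h. Their median log2 difference from the control was 0.06, 0.34, 0.56 and 0.41 at 0.5, 2, 4 and 24 h of IL-2, and -0.07, 0.10, 0.40 and 0.11 with IL-21. The highest IL-2 level fell at 4 h for 9 of 14 genes, beside 17.3% of all genes, and at 24 h for 2 of 14. From 4 h to 24 h of IL-2, 12 of 14 mitochondrial genes were lower (median -0.28) while 17 of 20 cytosolic genes were higher. The 14 mitochondrial members were paired with the cytosolic gene for the same amino acid, Eprs with both Ears2 and Pars2 and Farsa with Fars2. Taken with its sign, the mitochondrial difference from the control was the lower one in 13 pairs at 24 h of IL-2. It was so in 10 at 4 h of IL-2 and in 9 at 24 h of IL-21. By the ratio of RPKM, without a pseudocount, these counts were 13, 8 and 9. The exception at 24 h was Sars2, at 0.47 beside -0.10 for Sars. With IL-2, 1 of 14 mitochondrial genes was 2-fold higher at 4 h and none at 24 h, beside 5.38% and 9.58% of all genes. Only Lars2 was 2-fold lower at 24 h, as were 6.64% of all genes. The pseudocount of 1 RPKM weighs on the low mitochondrial genes, and with 0.25 RPKM 4 were 2-fold higher at 4 h and 2 at 24 h. By that pseudocount 784 and 1296 of all 11047 genes were.

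Mars2, the mitochondrial methionine enzyme, stood at 2.74 RPKM without cytokine, then at 3.19, 6.23, 8.23 and 6.08 RPKM across the IL-2 times and 2.13, 5.05, 4.51 and 4.17 RPKM across the IL-21 times. It was the 1 mitochondrial gene at 2-fold at 4 h, with a ratio of 3.01 (2.63 to 3.46) there and of 2.22 (1.92 to 2.58) at 24 h. Yars2, for tyrosine, stood at 5.76 RPKM without cytokine, then at 5.53, 9.57, 12.4 and 11.8 RPKM across the IL-2 times and 5.67, 8.17, 7.73 and 6.24 RPKM across the IL-21 times. Mars2 and Yars2 were above the control from 2 h in both courses, as were their cytosolic counterparts. The same held for Aars2, Ears2, Iars2, Nars2, Rars2 and Tars2, except that Rars, the counterpart of Rars2, was below the control at 24 h of IL-21. Nars2, for asparagine, stood at 1.52 RPKM without cytokine, then at 1.64, 2.74, 3.44 and 2.65 RPKM across the IL-2 times and 1.74, 2.56, 2.202 and 1.87 RPKM across the IL-21 times. Ears2, for glutamate, was the member that differed most at 2 h of IL-21. It stood at 2.33 RPKM without cytokine, then at 2.46, 5.40, 4.96 and 3.75 RPKM across the IL-2 times and 2.07, 4.40, 3.98 and 2.83 RPKM across the IL-21 times.

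Fars2, the mitochondrial phenylalanine enzyme, went the other way. It stood at 7.14 RPKM without cytokine, then at 7.42, 4.35, 4.21 and 3.88 RPKM across the IL-2 times and 5.78, 4.55, 4.65 and 4.78 RPKM across the IL-21 times. All 6 libraries of 2 h or later lay below the control, with a 24 h ratio of 0.543 (0.466 to 0.632) for IL-2 and 0.669 (0.585 to 0.765) for IL-21. Wars2, the least abundant member, stood at 1.97 RPKM without cytokine, then at 1.98, 2.10, 2.38 and 1.59 RPKM across the IL-2 times and 1.97, 2.03, 2.48 and 1.74 RPKM across the IL-21 times. Lars2 stood at 371 RPKM without cytokine, then at 365, 477, 311 and 158 RPKM across the IL-2 times and 281, 352, 565 and 268 RPKM across the IL-21 times. It was 2-fold lower with IL-2 at 24 h (ratio 0.424, 0.417 to 0.432), a value that rests on counts subject to the doubt given above. Without Lars2 the mitochondrial median with IL-2 was 0.41 at 24 h, as with it, and 0.68 at 4 h in place of 0.56, level with the cytosolic 0.67. The remaining mitochondrial genes, Aars2, Cars2, Iars2, Pars2, Rars2, Sars2 and Tars2, differed from the control by between 0.09 and 0.51 at 24 h of IL-2.

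To set the cytokine difference against its variation between times, the 8 cytokine libraries were fitted together with time as a factor, over 10452 genes with 3 residual degrees of freedom. By edgeR's quasi-likelihood test with Benjamini-Hochberg adjustment over all genes, 0 of 34 members passed an adjusted p of 0.05, as against 0.0383% of all genes. At an unadjusted p under 0.05 the count was 5 of 34, or 14.7%, the same share as over all genes (14.7%), and all 5 were higher with IL-2. This count was 9 without the libraries of 0.5 h, 3 without those of 2 h, 1 without those of 4 h and 2 without those of 24 h. Over all 10452 genes the counts moved likewise, to 2189, 1088, 693 and 1062 in the same order, from 1534 with all libraries. limma and DESeq2 also called 0 of 34, with 9 and 7 at an unadjusted p under 0.05, beside 1650 and 1867 of all genes. The largest mean difference was that of Mars, 0.58 on the log2 scale (SE 0.19), with an edgeR adjusted p of 0.295 (0.0925 to 0.598 over the alternatives), and IL-2 was higher at 4 of 4 times. Mars2 had the lowest edgeR adjusted p, 0.281, with a mean difference of 0.53 (SE 0.15).

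For 24 h against 0.5 h over both cytokines, edgeR called 0 of 34 members, as against 0.287% of all genes, and limma 0. At an unadjusted p under 0.05 edgeR's count was 16 of 34, 15 higher and 1, Fars2, lower at 24 h, or 47.1% beside 20.5% of all genes, and limma's was also 16. Over all 10452 genes limma's count was 2141. The edgeR count was 8 without the libraries of 2 h and 10 without those of 4 h, beside 1427 and 1736 of all genes. Mars was higher by 1.17 (SE 0.27, edgeR adjusted p 0.124), Tars by 0.95 (SE 0.26, adjusted p 0.147) and Mars2 by 0.95 (SE 0.21, adjusted p 0.123). DESeq2 called 4 members, Iars, Mars, Tars and Mars2, with adjusted p from 0.00479 (Mars) to 0.0378 (Iars), but it also called 8.04% of all genes. A term for the change of the cytokine difference with log2 of time, added after the values were seen, left 2 residual degrees of freedom. By edgeR 0 of 34 passed at an adjusted p of 0.05, where 5.2% of all genes did, with 0.0573 for Farsb and for Rars the lowest. At an unadjusted p under 0.05 there were 13 of 34 (38.2%, all genes 31.7%), of which 12 parted further in favour of IL-2 with time and 1, Lars2, in favour of IL-21.

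Other parts of the charging machinery were described by their counts with IL-2 at 24 h, beside the 9.58% of all genes that were 2-fold higher. Of the 8 synthetases of the multisynthetase complex, 4 were 2-fold higher with a median of 0.94, and of the 12 outside it, 3 were, with a median of 0.88. The 3 scaffold genes did not go together. Eef1e1 went from 6.66 RPKM in the control to 34.1 RPKM (2.19) and Aimp2 from 10.8 to 27.6 RPKM (1.28), but Aimp1 from 64.4 to 41.9 RPKM (-0.61). Of 36 genes of transfer RNA processing, modification and export, 9 were 2-fold higher and none lower, with a median of 0.58, and with IL-21 the median was 0.01. They include Nsun2, a transfer RNA cytosine methyltransferase, from 20.0 to 60.3 RPKM, and Pop1, a subunit of RNase P, from 2.95 to 10.5 RPKM. The cytosolic elongation factors had a median of -0.13 over the 6 genes listed. One of these is Eef1e1, counted above as a scaffold gene, and over the other 5 the median was -0.49, with 2 above the control and 3 below it. Among them Eef1a1 went from 8808 to 4863 RPKM.

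The 12 synthetases widely listed as ATF4 targets had a median of 0.92 with IL-2 at 24 h, with 5 at 2-fold, and the 8 not on that list 0.74, with 2 at 2-fold. Of 20 other ATF4 genes tested, 9 were 2-fold higher and none lower (median 0.85), while with IL-21 at 24 h the median was -0.26. Slc7a5, an amino acid transporter, went from 9.90 to 44.6 RPKM, and Phgdh and Psat1, enzymes of serine synthesis, from 31.6 to 109 RPKM and from 25.6 to 86.3 RPKM. Atf4 itself was at 67.3 RPKM without cytokine, while its 24 h levels were 87.5 RPKM for IL-2 and 44.5 RPKM for IL-21. Ddit3, another ATF4 gene, was lower, as given beside Mars. Myc stood at 65.1 RPKM without cytokine, then at 269, 107, 107 and 93.6 RPKM across the IL-2 times and 139, 63.3, 35.8 and 33.4 RPKM across the IL-21 times. Over each cytokine course Myc was thus highest at 0.5 h, as were 35.5% of all genes with IL-2 and 25% with IL-21. At that time 0 of the 20 cytosolic synthetase genes were 2-fold above the control, beside 0.407% (IL-2) and 0.326% (IL-21) of all genes. No cytosolic synthetase gene was 2-fold higher at any time of IL-21, and the order of Myc and these genes was not tested.

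**Figure D4:**
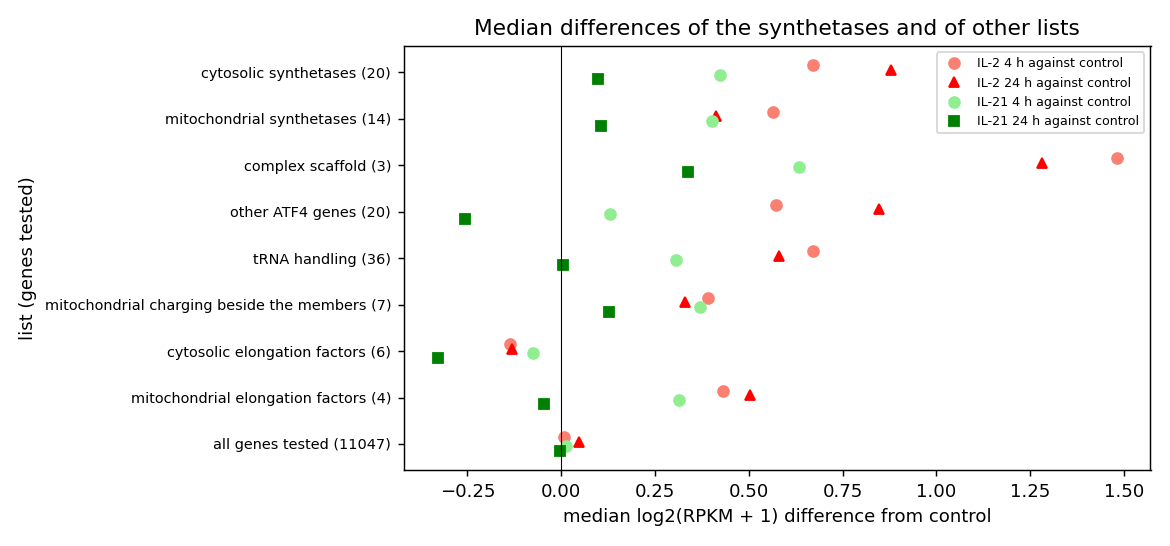
Median log2(RPKM + 1) difference from the control at 4 h and 24 h of IL-2 (reds) and IL-21 (greens) for the cytosolic and mitochondrial synthetases, 6 other lists of genes and all genes tested, with the number of genes in brackets. The cytosolic synthetases lie at 0.88 with IL-2 at 24 h, the cytosolic elongation factors at -0.13 (-0.49 without Eef1e1, which is also one of the scaffold genes) and all genes at 0.05.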

How the data were processed

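Each deposited file lists RefSeq transcripts of 1 RNA-seq library with a whole-number read count and an RPKM value, per the file headers. Deposited RPKM values equal the count divided by transcript length and by 1 total per library. The submitters' processing notes name TopHat2 2.0.11, Bowtie 0.12.9, HOMER, SAMtools and the build mm9, without their roles. Annotation, counting program and use of strand: not given in the sources used here. By RefSeq, gene spans of 15 of the 34 members overlap another gene, 7 of them a protein-coding one, so reads shared with these cannot be told apart.

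Groups came from the sample labels. Differences between 2 libraries were taken as log2(RPKM + 1), which understates the change of low genes, over 11047 genes with at least 1 RPKM in the highest library, leaving out transcripts under 200 bases. Intervals of ratios are exact conditional binomial 95% intervals of the 2 counts. The tests used edgeR 4.0.16 with TMM scaling on the deposited counts of the 8 cytokine libraries, over 10452 genes whose mean reached 1 RPKM, with limma 3.58.1 and DESeq2 1.42.0 as alternatives, in R 4.3.3. The fit was also run on simulated data with a constant cytokine difference, no effect of time and a fixed spread. The real libraries differ in these points, so that run does not measure how the test performs on them. With 1 library per condition, the spread used by the tests is how far the cytokine difference varied between times, with any technical spread. A cytokine difference that changes with time adds to that spread. No label says that libraries came from separate animals, so p-values do not measure a spread between animals. Genes named with all values were the 6 cytosolic and 3 mitochondrial members with the largest and the 3 of each with the lowest difference at 24 h of IL-2, the largest in each other comparison, and the most and least abundant, with up to 4 genes from each further list. Dars, Hars and other members are named beside them to account for all 34. The members and lists were chosen with earlier results of these data known. Leaving out Lars2 or Eef1e1 and comparing pairs without a pseudocount were added after the data were seen.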

Additional observations from a re-analysis of the deposited data

Results flagged for a closer look

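Of the 20 cytosolic genes, 3 stood on opposite sides of the control at 24 h with the 2 cytokines, each with counting intervals that leave out equality. All 3 were higher with IL-2 and lower with IL-21, and so were 11.5% of all 11047 genes by the same intervals. They were the only such genes among the 34 members. Opposite sides in either direction were more frequent over all genes than among the 20 or the 34. The count of 3 therefore does not set the synthetases apart from other genes. The ratio to the control was 1.53 with IL-2 and 0.879 with IL-21 for Dars, the aspartate enzyme. It was 1.48 and 0.787 for Kars, the lysine enzyme, and 1.12 and 0.769 for Vars, the valine enzyme. These differences between cytokines were not tested at 24 h alone, since each condition has 1 library, and the IL-2 value of Vars turns below the control under upper quartile scaling.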

How the results depend on the processing

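Counts of members at 2-fold moved with the scaling and the pseudocount, and no member difference of at least 2-fold turned in direction. Smaller differences could turn, as did the flagged IL-2 value of Vars at 24 h under upper quartile scaling. Upper quartile scaling gave 0 cytosolic genes higher at 2 h of IL-2 in place of 1, 3 in place of 7 at 24 h, and 1 in place of 3 for IL-2 against IL-21 at 24 h, and TMM scaling also gave 1 in that comparison. A pseudocount of 0.25 RPKM gave 2, 4 and 2 mitochondrial genes higher at 2, 4 and 24 h of IL-2 in place of 0, 1 and 0. Over all 11047 genes it gave 489, 784 and 1296 in place of 348, 594 and 1058. DESeq2 called 4 members for 24 h against 0.5 h in place of 0, and over all genes 450 in place of 4 for the cytokines and 840 in place of 30 for the times. The cause was not tested. Under upper quartile scaling 706 of all genes were 2-fold higher and 1015 lower at 24 h of IL-2, in place of 1058 and 734. For IL-2 against IL-21 at 24 h the counts were 820 and 892, and 879 and 848 under TMM, in place of 1088 and 670. Leaving out both libraries of any 1 time called 0 members. No paired analysis was possible because all libraries carry the same replicate number, but the test of the cytokines had time as a factor and so compared them within each time. Depth limits the mitochondrial genes most, with as few as 131 reads.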
